A study of Mus musculus with 12 samples.

Results

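The expression of 9 Wnt and beta-catenin target genes, namely Axin2, Nkd1, Notum, Rnf43, Lef1, Tcf7, Tcf7l1, Sp5 and Cdx1, was followed across 12 RNA-seq libraries of mouse embryonic stem cells (ESCs). The genes were picked by name from a table of 26061 genes because the medium of the naïve cells holds an inhibitor of GSK3, the kinase that marks beta-catenin for degradation. They were chosen with earlier results of these data known. Of the 9 genes, 8 had enough reads to be tested, together with 14185 genes in all, and Rnf43 did not. The cells were ESCs whose Tet2 gene had been knocked out and to which TET2 had been returned with a PiggyBac transposon, either as the WT protein or as a catalytic mutant (H1304Y, D1306A). Each of these rescue lines was grown in serum medium with LIF (primed ESCs) or in 2i medium (naïve ESCs), with 3 libraries in each of the 4 groups. Cells of every group were also infected with an shRNA against Setdb1 and selected with puromycin, so all values describe cells depleted of this histone methyltransferase. Whether a rescue line was a single clone is not given in the sources used here, and the labels do not say whether replicates were separate cultures, so p-values measure only the spread between these libraries.

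In the canonical Wnt pathway, a destruction complex built around AXIN and APC holds beta-catenin so that casein kinase and GSK3 can phosphorylate it, after which it is degraded. When a Wnt ligand binds Frizzled and LRP receptors, or when GSK3 is inhibited by a drug, beta-catenin accumulates, enters the nucleus and joins DNA-bound TCF and LEF factors. Genes switched on in this way include several that restrain the pathway again, and in mouse ESCs the pathway is best known for relieving repression by TCF7L1 of genes that maintain pluripotency. The 2i medium is free of serum and holds the GSK3 inhibitor CHIR99021, the MEK inhibitor PD0325901, LIF and the N2 and B27 supplements. The naïve and primed groups therefore differ in both inhibitors, in serum and in base medium at once, and the parts of these cannot be told apart here.

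TCF and LEF proteins bind a short core that is often written CTTTGAT or CTTTGAA. These letters were searched on both strands beside 7 of the members. Cdx1 and Notum had no RefSeq promoter window and were left out of both counts below. Around the start of 7 members in GENCODE vM1 on mm9, in windows of 1000 bases to each side, Sp5 held 5 matches, Axin2 4, Nkd1 2, Tcf7 1, Tcf7l1 1, and Lef1 and Rnf43 0. Of the 22380 protein-coding windows of the same length, 48.4% held at least 1 match and 3.93% held 3 or more. In RefSeq windows on GRCm38.p6, which run from 250 bases before to 50 after a start, 1 of 12 windows of 7 members held a match, that of Sp5, against 8.65% of 32851 windows. The 250 bases before the RefSeq start of Sp5, chr2:70474673-70474922 on the plus strand, are shown because Sp5 had the largest difference between media of all members on the log2 scale. Capitals mark the match, which begins 104 bases before the start.
Sp5: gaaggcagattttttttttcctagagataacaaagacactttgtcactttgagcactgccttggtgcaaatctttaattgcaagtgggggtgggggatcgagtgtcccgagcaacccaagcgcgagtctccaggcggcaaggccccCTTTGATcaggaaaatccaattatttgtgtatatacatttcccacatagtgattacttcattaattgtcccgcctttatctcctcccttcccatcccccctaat

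The 4 matches near Axin2 and the other matches near Sp5 are shown with 10 bases to each side, since these members held the most. Coordinates are those of the capital letters on mm9, all on the plus strand, on which both genes lie, and TTCAAAG is CTTTGAA read on the other strand. Such a match is a description of the letters and was not tested as a binding site.
Axin2, 5′ untranslated exon, chr11:108781741-108781747: gccggctgcgCTTTGATaaggtcctgg
Axin2, intron, chr11:108782104-108782110: cggctcgcgcCTTTGAAgtgcacagtt
Axin2, intron, chr11:108782546-108782552: ggccggcgcgCTTTGATgtgcggggcg
Axin2, intron, chr11:108782566-108782572: cggggcggcgCTTTGAAgttggcaggc
Sp5, 5′ untranslated exon, chr2:70313030-70313036: gctttgtggaTTCAAAGgatttgcttt
Sp5, 5′ untranslated exon, chr2:70313069-70313075: agccgctattCTTTGATgattgggtag
Sp5, 5′ untranslated exon, chr2:70313094-70313100: agcggcaaacTTCAAAGccataaatct
Sp5, intron, chr2:70313842-70313848: cttggcatctCTTTGAAccaagtagtt

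Gene totals ranged from 8066662 to 21335933 reads per library. Values are given on the log2 scale of a variance-stabilising transformation, which sets a gene without reads to 3.81 and understates differences of genes with few reads. Tet2 was higher in the WT than in the mutant rescue line in both media (by 2.16 in naïve and 1.84 in primed ESCs, limma adjusted p = 0.0154 and 0.0297), and no difference in Setdb1 between the lines was called. This Tet2 difference is one of RNA. By western blot, the paper reports that the WT and mutant TET2 proteins were present in similar amounts. The call of Tet2 was lost with no filter (limma adjusted p = 0.238 and 0.268), with the naïve libraries fitted alone for the naïve comparison, in naïve ESCs without WT naïve replicate 3 or mutant naïve replicate 1 or 2 (0.0809 to 0.132), and in primed ESCs without any 1 of the WT primed libraries or mutant primed replicate 1 or 2 (0.0512 to 0.151), at a difference of at least 1.59. The 7 ESC markers together summed to 36914 to 48761 normalised reads in each of the 12 libraries. Of the 7, 1 was called higher and 3 lower in naïve ESCs of each line. The higher one was Nanog in the WT line and Fgf4 in the mutant line. In the WT and mutant lines Lin28a was at 0.121 and 0.0921, Utf1 at 0.217 and 0.203 and Sall4 at 0.433 and 0.437 times its primed level. In bulk RNA, fewer cells of a type and less RNA per cell cannot be told apart.

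Axin2 encodes a scaffold of the destruction complex and is a widely used readout of beta-catenin activity (ENSMUSG00000000142.9, chromosome 11, 108781663 to 108812097 on mm9). In the WT rescue line its log2-scale values were 7.02, 6.45 and 7.19 in primed and 7.91, 9.04 and 9.39 in naïve ESCs. Those of the mutant line were 6.84, 6.63 and 7.13 in primed and 7.81, 7.96 and 8.93 in naïve ESCs. All 6 naïve libraries lay above all 6 primed libraries, and the naïve libraries spread more widely. Media that do not overlap within a line were common here. Of the 14185 tested genes, 3613 lay wholly higher and 3482 wholly lower in naïve ESCs of the WT line, and 3165 and 3009 in the mutant line. The same background holds for the members below. Axin2 rose in naïve ESCs by 1.89 ± 0.34 (SE, n = 3 against 3, limma adjusted p = 0.000508) in the WT line and by 1.37 ± 0.34 (adjusted p = 0.00568) in the mutant line. In mean normalised reads these are 4.76-fold and 3.21-fold. With no filter on low genes the adjusted p of the mutant line was 0.0624 in limma. The library preparation kept no strand, and 209 of 5506 exonic bases of Axin2 are shared with a gene on the other strand.

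Among the other feedback inhibitors, Notum encodes a secreted enzyme that removes the lipid from Wnt ligands (ENSMUSG00000042988.4, chromosome 11, 120515102 to 120522489). Its log2-scale values in the WT line were 7.33, 7.28 and 7.95 in primed and 7.69, 8.60 and 8.62 in naïve ESCs, and in the mutant line 8.05, 7.52 and 8.01 in primed and 7.55, 8.07 and 8.69 in naïve ESCs. In both lines the lowest naïve library lay below the highest primed library, so that the media overlapped. Notum rose by 0.79 ± 0.30 in naïve ESCs of the WT line (limma adjusted p = 0.0482), and the difference in the mutant line was 0.25 ± 0.30 (adjusted p = 0.552). The call in the WT line was lost without WT naïve replicate 2 or 3, WT primed replicate 1 or 2, mutant naïve replicate 2, or mutant primed replicate 1 or 2, with limma adjusted p between 0.0509 and 0.161. Of the 2408 exonic bases of Notum, 708 are shared with 1 gene annotated on the other strand and 210 with another.

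Nkd1 encodes an intracellular antagonist that binds Dishevelled (ENSMUSG00000031661.5, chromosome 8, 91045243 to 91118786). Its log2-scale values were 5.47, 5.22 and 5.26 in primed and 5.60, 6.04 and 5.17 in naïve ESCs of the WT line, and 5.56, 5.38 and 5.03 in primed and 5.93, 6.08 and 5.93 in naïve ESCs of the mutant line. The media overlapped in the WT line and were apart in the mutant line. The difference was 0.29 ± 0.22 in the WT line (limma adjusted p = 0.319), and Nkd1 rose by 0.66 ± 0.22 in the mutant line (adjusted p = 0.0285). This call was lost without mutant naïve replicate 1 or 2 or mutant primed replicate 2 or 3, with adjusted p between 0.0590 and 0.105.

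Rnf43 encodes a membrane ubiquitin ligase that removes Frizzled receptors from the cell surface (ENSMUSG00000034177.8, chromosome 11, 87476224 to 87549041). It had 0, 0 and 1 reads in primed and 0, 0 and 2 in naïve ESCs of the WT line, and 0, 3 and 0 in primed and 2, 6 and 2 in naïve ESCs of the mutant line. Its mean lay below the limit for a test, and no fold is given for these 16 reads.

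**Figure D1:**
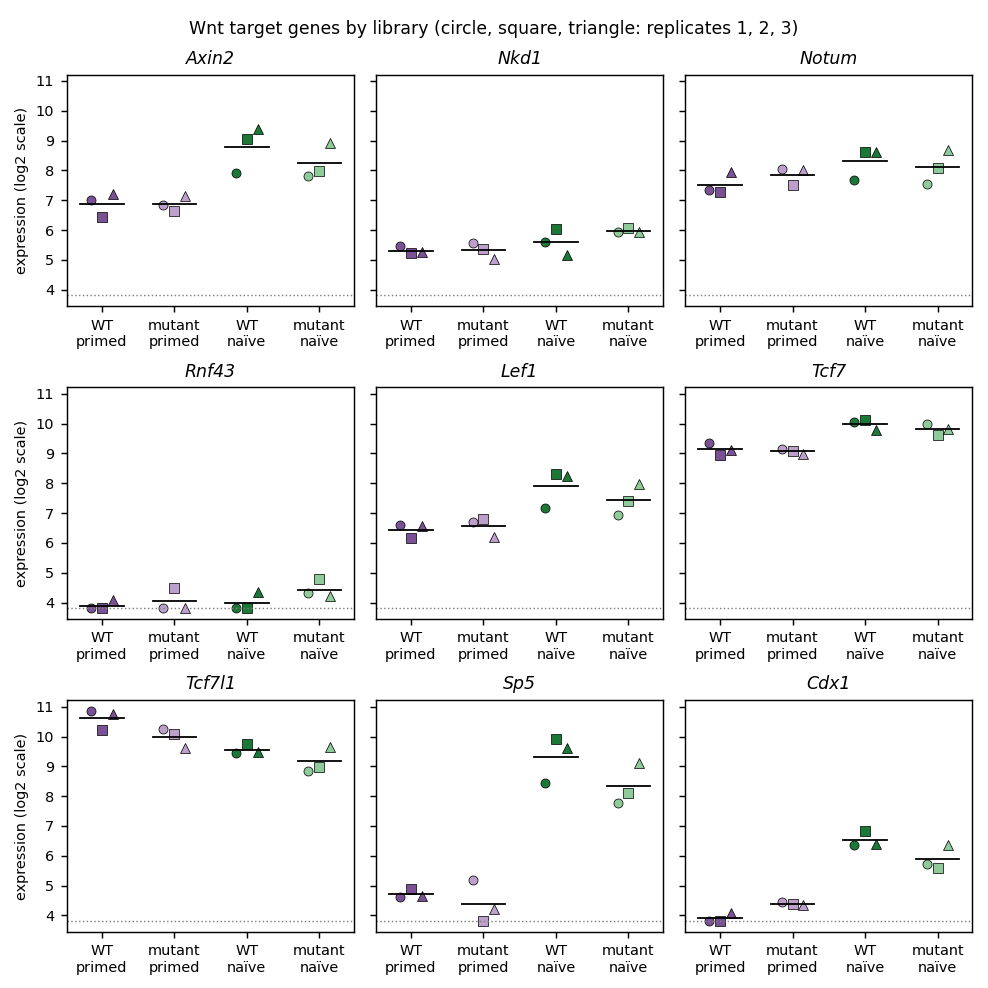
Log2-scale expression of the 9 Wnt target genes (y axis, same range in every panel) in each library of the 4 groups (x axis), with a bar at the group mean and a dotted line at 3.81, the value of a gene without reads. Sp5 and Cdx1 lie near the dotted line in primed ESCs and well above it in naïve ESCs, all naïve libraries of Axin2, Lef1 and Tcf7 lie above the primed ones, and Tcf7l1 is highest in primed ESCs of the WT line. Of 14185 tested genes, 3613 lay wholly higher in naïve ESCs within the WT line and 3165 within the mutant line.

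TCF7 and LEF1 are TCF/LEF factors that mostly activate targets when joined by beta-catenin, and their genes are themselves targets of the pathway in many tissues. Tcf7 (ENSMUSG00000000782.8, chromosome 11, 52065873 to 52096681) had values of 9.33, 8.95 and 9.12 in primed and 10.06, 10.13 and 9.78 in naïve ESCs of the WT line. Mutant libraries had values of 9.17, 9.09 and 8.99 in primed and 9.997, 9.61 and 9.83 in naïve ESCs. No naïve library overlapped a primed library, a separation that many tested genes shared within a line (above). Tcf7 rose by 0.86 ± 0.16 in the WT line (limma adjusted p = 0.000703) and by 0.73 ± 0.16 in the mutant line (adjusted p = 0.00247), which is 1.85-fold and 1.70-fold in mean normalised reads.

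Lef1 (ENSMUSG00000027985.8, chromosome 3, 130813389 to 130927274) had log2-scale values of 6.59, 6.15 and 6.57 in primed and 7.18, 8.30 and 8.24 in naïve ESCs of the WT line. The mutant line had 6.71, 6.81 and 6.21 in primed and 6.93, 7.40 and 7.99 in naïve ESCs. The media did not overlap in either line, although replicate 1 of each naïve group lay close to its primed libraries. Lef1 rose by 1.47 ± 0.30 in the WT line (3.68-fold in mean normalised reads, limma adjusted p = 0.00143) and by 0.86 ± 0.30 in the mutant line (2.18-fold, adjusted p = 0.0358). The call in the mutant line was lost without mutant naïve replicate 2 or 3 or mutant primed replicate 1 or 3, with adjusted p between 0.0526 and 0.159.

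Tcf7l1 encodes the TCF factor known in ESCs as a repressor (ENSMUSG00000055799.6, chromosome 6, 72576372 to 72739248), and it was the only member that fell. Its log2-scale values were 10.86, 10.23 and 10.74 in primed and 9.44, 9.76 and 9.48 in naïve ESCs of the WT line, where the media did not overlap. In the mutant line they were 10.25, 10.10 and 9.60 in primed and 8.86, 8.98 and 9.65 in naïve ESCs, where the highest naïve library lay just above the lowest primed library. Tcf7l1 fell by 1.05 ± 0.23 in the WT line (limma adjusted p = 0.00195) and by 0.82 ± 0.23 in the mutant line (adjusted p = 0.0107), so that primed ESCs held 2.14 and 1.77 times the mean normalised reads of naïve ESCs. The call in the mutant line was lost without mutant naïve replicate 1 or 2, with adjusted p of 0.0620 and 0.0507. With a gene on the other strand Tcf7l1 shares 179 of 3323 exonic bases.

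Per length, the balance of these factors differed between the media. In normalised reads per kb of exon, the level of Tcf7 divided by that of Tcf7l1 was 0.401, 0.473 and 0.373 in primed ESCs of the WT line and 1.85, 1.55 and 1.48 in its naïve ESCs. For the mutant line this ratio was 0.549, 0.579 and 0.764 in primed and 2.71, 1.87 and 1.36 in naïve ESCs. Tcf7l1 was thus the more abundant of the pair in all 6 primed libraries and Tcf7 in all 6 naïve libraries. Tcf7l2, the remaining gene of the family, lay between 2.73 and 16.5 normalised reads per kb in all 12 libraries and fell by 0.93 ± 0.23 in the WT line and by 0.89 ± 0.23 in the mutant line (limma adjusted p = 0.00469 and 0.00644). Of the summed level of the 4 genes, Tcf7l1 took 54.4% to 70.5% in primed and 26.2% to 40.1% in naïve libraries.

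**Figure D2:**
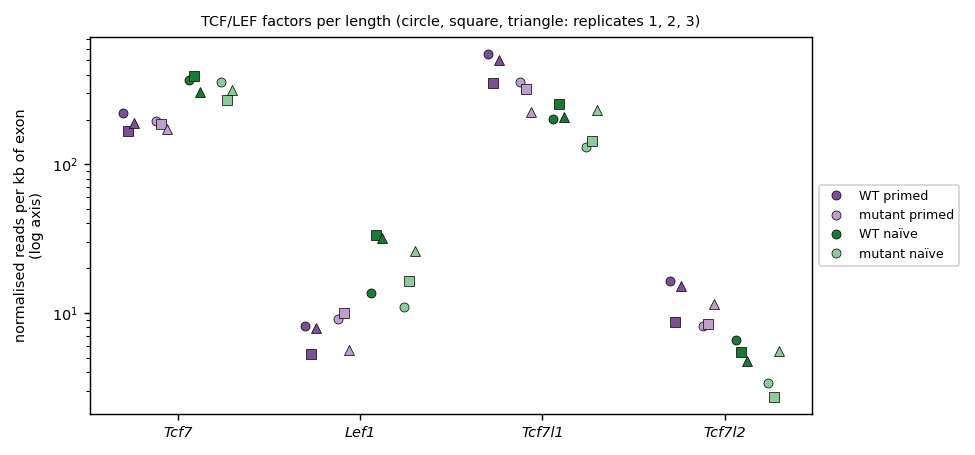
Level of the 4 TCF/LEF genes (x axis) in normalised reads per kb of exon (log y axis) in each library, coloured by group. Tcf7l1 lies above Tcf7 in every primed library and below it in every naïve library, and Lef1 and Tcf7l2 lie far below both.

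Sp5 and Cdx1 encode transcription factors that are direct targets of the pathway in the early embryo, SP5 a zinc-finger protein and CDX1 a homeobox protein of the posterior body axis. Sp5 (ENSMUSG00000075304.2, chromosome 2, 70312980 to 70315786) had 3, 7 and 9 reads in primed and 271, 971 and 732 reads in naïve ESCs of the WT line. The mutant line had 10, 0 and 1 reads in primed and 228, 229 and 924 reads in naïve ESCs. The corresponding log2-scale values were 4.61, 4.90 and 4.64, then 8.43, 9.93 and 9.61, in the WT line, and 5.19, 3.81 and 4.20, then 7.78, 8.11 and 9.12, in the mutant line. Sp5 was thus close to undetected in every primed library and clearly expressed in every naïve library. It rose by 4.61 ± 0.40 in the WT line (limma adjusted p = 3.58e-07) and by 3.94 ± 0.40 in the mutant line (adjusted p = 1.87e-06), the largest differences between media among the members in both lines on this scale. The ratio of summed reads, scaled by size factor, was 124 (exact 95% interval 79.0 to 206) in the WT line and 84.8 (47.2 to 170) in the mutant line, an interval that covers counting error only. In the mutant line 10 of the 11 primed reads came from replicate 1, and without it the ratio was 672 (120 to 26564). It was 54.5 without mutant primed replicate 2 and 51.3 without mutant naïve replicate 3.

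Cdx1 (chromosome 18) had 0, 0 and 1 reads in primed and 48, 90 and 56 reads in naïve ESCs of the WT line, with log2-scale values of 3.81, 3.81 and 4.09, then 6.35, 6.83 and 6.38. Libraries of the mutant line had 2, 2 and 2 reads in primed and 34, 22 and 98 reads in naïve ESCs, with values of 4.44, 4.37 and 4.37, then 5.73, 5.58 and 6.35. No library of one medium reached the other. Cdx1 rose by 2.62 ± 0.22 in the WT line (limma adjusted p = 2.17e-07) and by 1.49 ± 0.22 in the mutant line (adjusted p = 6.89e-05). With 194 reads against 1 in the WT line, the scaled ratio was 231 with an exact 95% counting interval of 41.0 to 9170, and with 154 against 6 in the mutant line it was 17.3 (7.79 to 48.0), or 11.5 without mutant naïve replicate 3. Without WT primed replicate 3 no primed read of the WT line was left and no ratio is given. Sp5 and Cdx1 passed the limit for a test only through their naïve libraries, so a difference between media was a condition of their being tested.

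Counted together, 6 members were higher and 1 was lower in naïve ESCs of the WT line (Nkd1 was not called), where 18.6% of all tested genes were called higher and 17.3% lower. In the mutant line 6 were again higher and 1 lower (Notum was not called), against 18.3% and 16.9% of all tested genes. The median difference over the 8 tested members was 1.16 in the WT and 0.80 in the mutant line, beside 0.01 and -0.01 over all tested genes. Because the 8 include the pair that passed only where they were high, the same was counted over all 9 members with no filter on low genes. Then 5 were higher and 1 lower in the WT line, against 8.14% and 8.45% of 26061 genes, and 3 were higher and 0 lower in the mutant line, against 8.61% and 8.0%. The 3 of the mutant line were Sp5, Cdx1 and Tcf7, and in limma without the filter 7431 of the 26061 genes of that comparison had an unadjusted p under 0.05. The shares over all genes do not allow for the choice of members with earlier results known.

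**Figure D3:**
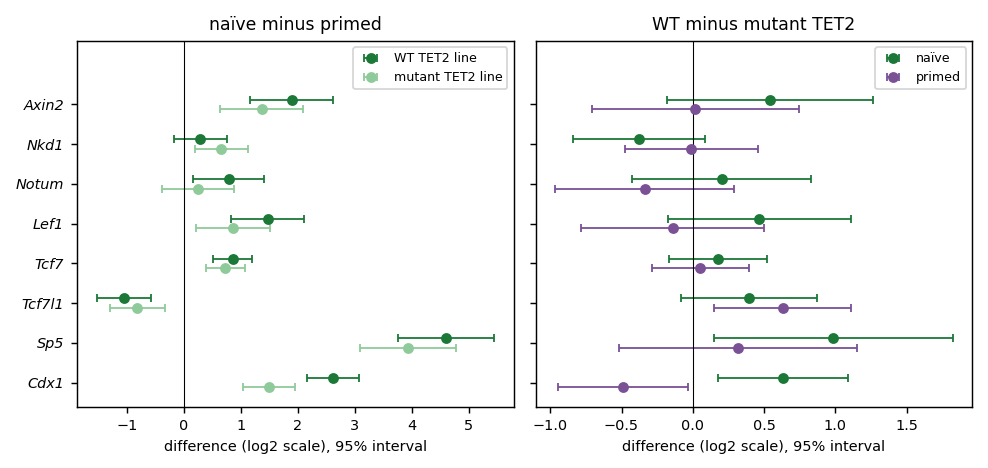
Difference of the 8 tested members on the log2 scale (x axis) with its 95% interval in limma, for naïve minus primed ESCs in each line (left) and for WT minus mutant TET2 in each medium (right). Sp5 and Cdx1 lie farthest to the right between media, and Tcf7l1 alone lies to the left there in both lines. The differences between lines range from -0.49 to 0.98.

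Levels of different members were compared only per length. In naïve ESCs of the WT line the order in normalised reads per kb was Tcf7 (356), Sp5 (320), Tcf7l1 (220), Notum (125), Axin2 (81.9), Cdx1 (38.4), Lef1 (26.3), Nkd1 (5.90) and Rnf43 (0.105). Libraries of neighbours in this order overlapped except between Tcf7l1 and Notum, Lef1 and Nkd1, and Nkd1 and Rnf43. In primed ESCs of the WT line it was Tcf7l1 (471), Tcf7 (193), Notum (66.8), Axin2 (17.2), Lef1 (7.14), Nkd1 (3.77), Sp5 (2.80), Cdx1 (0.101) and Rnf43 (0.0269), and neighbours overlapped only between Nkd1 and Sp5 and between Cdx1 and Rnf43. Sp5 thus stood in the second place of the naïve order and in the seventh of the primed order.

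In the mutant line the naïve order in normalised reads per kb was Tcf7 (314), Tcf7l1 (170), Sp5 (154), Notum (109), Axin2 (53.3), Cdx1 (20.7), Lef1 (17.9), Nkd1 (8.59) and Rnf43 (0.475). The primed order was Tcf7l1 (301), Tcf7 (185), Notum (86.2), Axin2 (16.6), Lef1 (8.22), Nkd1 (3.91), Sp5 (2.35), Cdx1 (1.34) and Rnf43 (0.164), the same sequence of genes as in the WT line. In the naïve order libraries overlapped from Tcf7l1 to Axin2 and between Cdx1 and Lef1, and in the primed order between Nkd1 and Sp5 and between Sp5 and Cdx1.

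Between the rescue lines, 0 of the 8 members were called in either medium in limma, where 0.0987% of all tested genes in naïve and 0.254% in primed ESCs were called. At an unadjusted p under 0.05, 2 members passed in each medium, among 1882 genes in naïve and 2295 in primed ESCs, and limma-voom on the recovered reads also called 0 members. In naïve ESCs the largest differences of WT minus mutant were those of Sp5, 0.98 with a 95% interval of 0.15 to 1.82 (adjusted p = 0.32), and of Cdx1, 0.63 with an interval of 0.18 to 1.09 (adjusted p = 0.281). For Axin2 the difference was 0.54, with an interval of -0.18 to 1.27 (adjusted p = 0.496). Within naïve replicate pairs the library of the WT line was higher in 3 of 3 for Axin2, Lef1, Sp5 and Cdx1, in 2 of 3 for Tcf7, Tcf7l1 and Notum, and in 0 of 3 for Nkd1. For Cdx1 the difference of replicate 3 was only 0.03. The naïve libraries of the 2 lines overlapped for each of the 8 members, and such pair counts were not made over all tested genes. Same-numbered naïve libraries of the 2 lines deviated together, and when replicate numbers entered the limma fit as a block it called 36 genes in naïve ESCs (0.254%), of which 0 were members, with adjusted p of 0.0996 for Sp5, 0.135 for Cdx1 and 0.143 for Axin2.

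In primed ESCs, Tcf7l1 was 0.63 higher in the WT line (95% interval 0.15 to 1.11, limma adjusted p = 0.223), and the libraries of the lines overlapped. Cdx1 was 0.49 lower on the log2 scale (interval -0.95 to -0.04, adjusted p = 0.279), which rests on 1 read in the WT and 6 in the mutant line. The other members differed by between -0.34 for Notum and 0.32 for Sp5. Whether the difference between lines changed with the medium was tested as an interaction, which called 0% of all tested genes in limma, with 489 genes at an unadjusted p under 0.05 and 0 calls by limma-voom. Of the members, Cdx1 had the largest interaction, 1.13 ± 0.30 (adjusted p = 0.976), which rests on the same few primed reads, and the others lay between -0.37 and 0.67. The upper end was that of Sp5, which changed sign with the method and was -0.352 and -0.418 with limma-voom.

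Axin2, Lef1 and Notum spanned a wider range in the naïve than in the primed libraries of each line, a difference that was not tested. Over the 6 naïve libraries, Pearson's r of log2-scale values with Axin2 was 0.96 for Lef1, 0.93 for Sp5, 0.93 for Notum, 0.76 for Tcf7l1 and 0.71 for Cdx1, but -0.01 for Tcf7 and -0.41 for Nkd1. Replicate 1 of both lines was the lowest of its naïve group for Axin2, Lef1, Sp5 and Notum. Over the 6 primed libraries r was 0.61 for Notum, 0.37 for Tcf7 and between -0.19 and 0.18 for the rest, which include Sp5 and Cdx1 with few or no reads. The 6 points of a medium come from 2 lines and share replicate numbers across them, so these values are given as a description.

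Across all 12 libraries the tested genes whose log2-scale values were most like those of Axin2 were Gm694 (Pearson's r = 0.97), Pdp2 (0.96), Khdc1c (0.95), Sh2d4b (0.95) and Zfp819 (0.95), and the points fall into 2 media. PDP2 is a subunit of the phosphatase that activates pyruvate dehydrogenase, and ZFP819 is a zinc-finger protein. Khdc1c belongs to a family of closely similar copies, so its reads are uncertain.

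Other genes of the pathway were called in both directions. Of 115 further pathway genes, 79 were tested, and in naïve ESCs 14 were higher and 19 lower in the WT line, and 15 were higher and 18 lower in the mutant line. The shares of all tested genes were 18.6% higher and 17.3% lower in the WT line and 18.3% and 16.9% in the mutant line. The counts of each list below are to be read beside these shares. The median difference of the 79 genes was -0.06 and -0.02, beside 0.01 and -0.01 over all tested genes. Between the lines limma called 0 of the 79 in naïve ESCs, in primed ESCs and in the interaction, with 8, 16 and 1 at an unadjusted p under 0.05.

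Among Wnt ligands, 5 of 19 were tested. Wnt7b fell by 1.79 in the WT and 1.31 in the mutant line and Wnt6 fell by 0.90 and 0.60, while Wnt3 rose by 0.62 in the WT line (limma adjusted p = 0.0378) and differed by 0.26 in the mutant line (adjusted p = 0.38). The call of Wnt3 was lost without any 1 of the WT primed libraries or without WT naïve replicate 2 or 3 (limma adjusted p of 0.0611 to 0.129), and that of Wnt6 in the mutant line without any 1 of the mutant naïve libraries or without mutant primed replicate 1 or 2 (0.0505 to 0.0880). Porcn, which encodes the acyltransferase that attaches the lipid to Wnt ligands, fell by 2.51 ± 0.23 in the WT and 3.39 ± 0.23 in the mutant line. Wls, the other tested gene of Wnt secretion, was not called in either line. Of 15 receptor genes, 3 were higher and 3 lower in the WT line and 4 higher and 3 lower in the mutant line. Fzd7 fell by 1.99 and 1.59, Fzd1 fell by 1.51 and 1.16 and the Wnt5a receptor gene Ror1 fell by 1.47 and 1.43, whereas its relative Ror2 rose by 1.45 and 1.58. Fzd10 and Fzd4 rose as well, by 1.02 and 1.00 in the WT and by 1.16 and 1.17 in the mutant line, and the co-receptor gene Lrp5 rose by 0.60 in the mutant line. R-spondins and their LGR receptors spare Frizzled from removal by RNF43, and of the 3 tested genes of this axis Rspo1 fell by 0.91 and 1.13 and Lgr4 fell by 0.74 and 1.11. Without WT naïve replicate 1 the limma adjusted p of Lgr4 in the WT line was 0.0540.

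Of 7 tested extracellular inhibitors and their receptors, 5 were higher and 1 lower in the WT line, and 4 were higher and 0 lower in the mutant line. Sfrp1 and Sfrp2, which encode Frizzled-like proteins that bind Wnt ligands, rose by 1.81 and 0.82 in the WT and by 1.79 and 0.73 in the mutant line. Dkk3, a divergent member of the Dickkopf family, rose by 2.32 and 2.51. Sfrp4 rose by 1.08 in the WT line, and its difference in the mutant line was 0.37 (limma adjusted p = 0.3). The others called were Apcdd1, a membrane-bound inhibitor (0.62 higher), and Kremen1, a Dickkopf receptor, which fell by 0.47, in the WT line, and its relative Kremen2 in the mutant line (0.64 higher). These and the further called genes outside the largest of each list were named after their values were seen.

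Genes of the destruction complex include the kinases, scaffolds and transducers that act on beta-catenin. Of 17 tested, 0 were higher and 1 lower in the WT line, Apc2, which fell by 1.03 (the difference in the mutant line was -0.48), and 2 were higher and 0 lower in the mutant line, the kinase gene Csnk1e by 0.88 and the scaffold gene Apc by 0.69. Over all tested genes the shares were 18.6% higher and 17.3% lower in the WT line and 18.3% and 16.9% in the mutant line. Ctnnb1, which encodes beta-catenin, differed by -0.25 ± 0.19 in the WT and -0.34 ± 0.19 in the mutant line (limma adjusted p = 0.33 and 0.174). The targets of CHIR99021 differed by -0.40 and -0.26 for Gsk3a and by -0.05 and 0.00 for Gsk3b, with limma adjusted p from 0.0814 to 0.994. Without mutant primed replicate 3, Gsk3a in the WT line was called (adjusted p = 0.0433). These are transcript levels, which show neither beta-catenin protein nor kinase activity.

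Of 15 tested nuclear partners and intracellular inhibitors, 1 was higher and 4 lower in the WT line, and 2 were higher and 5 lower in the mutant line. The 4 were Bcl9l, a co-activator that binds beta-catenin, Dact1, a Dishevelled antagonist, Tle4, a Groucho co-repressor of TCF factors, and Tcf7l2 (above). Bcl9l fell by 1.45 and 0.80, Dact1 fell by 1.31 and 0.74, and Tle4 fell by 1.20 and 1.41 in the WT and mutant lines. The call of Bcl9l in the mutant line was lost without mutant naïve replicate 1 or 2 or mutant primed replicate 1 or 2 (limma adjusted p of 0.0719 to 0.0885). Dact2 rose by 0.92 and 1.08, and in the mutant line Dact3 rose by 0.76 and Tle1 fell by 0.57.

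Targets of beta-catenin known from other tissues moved in both directions. Of 10 tested, 2 were higher and 5 lower in both lines. Tnfrsf19 rose by 1.95 in the WT and 1.56 in the mutant line, while Myc fell by 2.51 and 2.83, Id2 fell by 1.91 and 2.17 and Msx2 fell by 1.42 and 1.48. Msx1 rose by 1.16 and 0.74, Ascl2 fell by 1.03 and 0.69 and Bambi fell by 0.94 and 1.45. Of 5 genes reported to be repressed by TCF7L1 in ESCs, 2 were higher in the WT and 1 in the mutant line. They were Tfcp2l1, listed here as Tcfcp2l1, which rose by 2.33 and 2.77, and Nanog, which rose by 0.57 in the WT line and differed by 0.40 (limma adjusted p = 0.137) in the mutant line. The call of Nanog in the WT line was lost without WT primed replicate 1 or 3 or WT naïve replicate 1 or 2 (adjusted p of 0.0713 to 0.146), and without mutant naïve replicate 3 Nanog was called in the mutant line (0.0448).

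The other inhibitor of the 2i medium acts on MEK, and response genes of the ERK pathway, which lies downstream, were measured beside the members. In naïve ESCs 14 of 15 tested were lower in the WT and 13 in the mutant line, with 0 higher. Of all tested genes, 17.3% were lower in the WT and 16.9% in the mutant line. Spry4, a feedback inhibitor of ERK signalling, fell by 5.17 in the WT and fell by 5.09 in the mutant line. Dusp6, an ERK phosphatase, fell by 3.75 and fell by 3.998, and Etv4, an ETS factor, fell by 3.99 and fell by 3.91. Spry1 was not called in either line, nor Fos in the mutant line. The part of this in the values of the members was not tested.

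**Figure D4:**
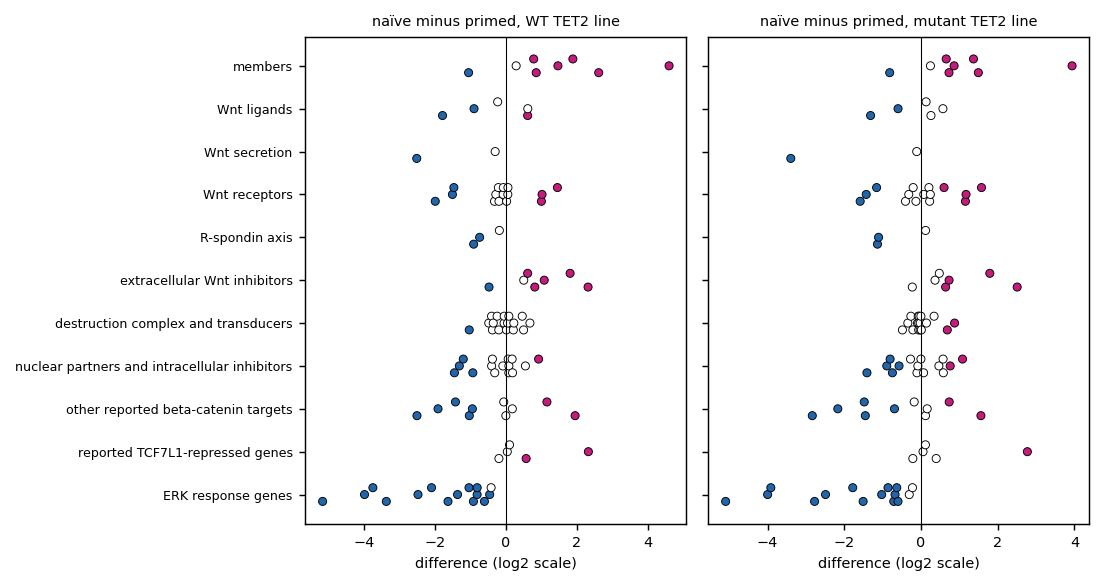
Difference of naïve minus primed ESCs on the log2 scale (x axis) for each tested gene of the members and of 10 lists (rows), in the WT (left) and the mutant line (right), with genes called higher in magenta, lower in blue and not called in white. The members and the secreted inhibitors lie mostly to the right. The ERK response genes, both tested Wnt secretion genes and 2 of the 3 tested genes of the R-spondin axis lie to the left. Of the Wnt secretion genes only Porcn was called.

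Markers of other cell types also differed between the media. The 5 trophoblast markers found in the table summed to 25.8 to 85.8 normalised reads in naïve and 152 to 246 in primed libraries, the 8 markers of primitive streak and mesoderm to 87.7 to 132 and 142 to 232, and the 3 neural markers to 1131 to 1801 and 2313 to 3275. Of 3 tested trophoblast markers, 3 were lower in the WT and 2 in the mutant line, where Krt7 was at 2.36 times its primed level. Of the 3 neural markers 2 were lower in each line, and Nes, at 1.23 and 1.46 times its primed level, was not called. Of the mesoderm markers only Gsc and Eomes were tested, and they went opposite ways, Gsc higher by 0.78 and 1.11 in naïve ESCs of the WT and mutant lines while Eomes fell by 1.62 and fell by 1.39. Of the mesoderm markers with too few reads to be tested, T and Kdr were above their primed level in both lines. For T the mean normalised reads were 25.2-fold and 4.31-fold. Mixl1, Evx1 and Hand1 were below their primed level in both lines, and Mesp1 went opposite ways in the lines. The sums of primitive endoderm markers overlapped between the media. The 7 fibroblast markers summed to 67.2 to 93.8 in naïve and 29.4 to 60.6 in primed libraries, with Col1a2, Col3a1, Postn and Dcn without a read in all 12 libraries. Of the 2 fibroblast markers tested, Thy1 was higher in both lines (3.10-fold and 5.57-fold in mean normalised reads). The other, Lum, was not called in the WT line and was lower in the mutant line, at 0.293 times its primed level. Within the WT line the 7 naïve markers summed to 21012 to 22905 normalised reads in naïve and 13684 to 17606 in primed libraries, and within the mutant line to 15500 to 20612 and 12380 to 15473. Of these 7, 2 were called higher in each line, Prdm14 and Tcfcp2l1, and 1 lower, Zfp42, which fell by 0.94 and fell by 1.29. The 7 markers of primed ESCs summed to 1633 to 3678 in naïve and 9490 to 15005 in primed libraries. The part of these cells in the values of the members was not tested.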

How the data were processed

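Expression was measured by poly(A) RNA-seq in 12 libraries, grouped by their labels. The authors trimmed reads with Trim Galore 0.3.3, aligned them to mm9 with TopHat2 2.0.9, counted reads per gene and deposited log2-scale values made by the variance-stabilising transformation of DESeq2, which hold their size factors. A table of repeats was not used. Inverting the transformation gave whole reads (within 0.01) for 100% of values. Normalised reads are these reads over the size factor, and levels per kb use merged exons of GENCODE vM1.

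One limma 3.58.1 fit (R 4.3.3, variance trend) of the deposited log2 values took the 12 libraries as 4 groups, with Benjamini-Hochberg adjustment over the 14185 genes with a mean of at least 1 over the table's lowest value. Genes were called at an adjusted p under 0.05. The members and lists were chosen with earlier results of these data known. All members were named, with up to 4 called genes of each pathway list (3 for ERK) of largest difference in the WT line, Ctnnb1, Gsk3a, Gsk3b, Tcf7l2, and the 5 genes most like Axin2. Intervals of read ratios are exact binomial and cover counting error only, since reads are not independent molecules. Alternatives were other filters, scalings, thresholds and sample sets, limma-voom on recovered reads, a replicate block, and each library left out. Same-numbered libraries of WT and mutant lines deviated together in naïve ESCs (correlations over genes of 0.59, 0.30 and 0.39), which was taken as pairing, and less so in primed ESCs (0.16, -0.07 and 0.19). Tables and figures were made with Python 3.11.15, pandas 2.3.3, scipy 1.17.1 and matplotlib 3.10.9. Protein sequences were not analysed here.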

Additional observations from a re-analysis of the deposited data

How the results depend on the processing

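Axin2, Lef1, Tcf7, Tcf7l1, Sp5 and Cdx1 kept their direction between media in both lines under every alternative run that tested them (the stricter filter left out Sp5 and Cdx1). The number of members called between media was 7 in each line. It was 4 in both lines with a stricter filter, which left 5 members to test, and in the mutant line it was 3 with no filter and 3 when a difference of more than 1 was also asked for. Leaving out a library gave 6 to 7 in the WT line and 4 to 7 in the mutant line, with the lowest without mutant naïve replicate 2. The call of Notum in the WT line was also lost with no filter, the stricter filter, no variance trend, centring, quantile normalization and both limma-voom fits (limma adjusted p of 0.0515 to 0.192).

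Between the lines 0 members were called under any alternative. Over all genes the 14 calls in naïve ESCs became 36 with the replicate block, 5 with the stricter filter, 6 on log2(normalised read count + 1), 9 in the naïve libraries alone and 5 to 22 without a library. The 36 calls in primed ESCs became 209 with the replicate block, 23 with the stricter filter, 18 in the primed libraries alone and 12 to 82 without a library. The interaction had 12 calls with no filter and 0 to 1 without a library. A difference of more than 1 between media left 1745 of 5095 and 1636 of 4993 calls. In primed ESCs the replicate block rests on numbers that were not taken as pairs. The block between media rests on such numbers too. There same-numbered libraries had mean correlations of deviations of 0.12 in the WT and -0.09 in the mutant line. The block changed no call of a member, and among the named genes it ended that of Wnt3 in the WT line (adjusted p = 0.0521).

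Some values changed sign, and that of the Sp5 interaction was not near 0. Between lines in primed ESCs, Axin2 was -0.00537 with centring, -0.0204 with quantile normalization and -0.135 to 0.238 without a library. Nkd1 there was 0.0343 with limma-voom on gene totals, 0.000135 on log2(normalised read count + 1) and -0.157 to 0.111 without a library, while Lef1 ranged from -0.323 to 0.00275 and Tcf7 from -0.0486 to 0.144 without a library. Without a library, Gsk3b between media ranged from -0.245 to 0.0710 in the WT and from -0.125 to 0.134 in the mutant line, and in the mutant line it was 0.00332 with quantile normalization and 0.00290 with limma-voom on gene totals. Notum without a library ranged from -0.0465 to 0.522 between media in the mutant line and from -0.0735 to 0.508 between lines in naïve ESCs. The interaction of Sp5 was 0.67 in the main fit, but -0.352 and -0.418 with limma-voom and -0.0437 on log2(normalised read count + 1). That of Tcf7l1 ranged from -0.426 to 0.00665 without a library. The cause was not tested. Leaving libraries out of the read ratios of Sp5 and Cdx1 was chosen after seeing the data. Depth limits Sp5 and Cdx1 in primed ESCs, where their folds rest on 1 to 19 reads a line, and Rnf43 throughout.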
